A study of Mus musculus with 24 samples.

Results

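The mature strands of the mouse miRNA genes Mir204 and Mir211 were followed across 8 tissues and 3 lens groups. The members were the 4 strands mmu-miR-204-5p, mmu-miR-204-3p, mmu-miR-211-5p and mmu-miR-211-3p, taken by name, of 1881 miRNAs on the array. The 5p strand comes from the 5′ side of the hairpin precursor and the 3p strand from its 3′ side. The signal of a miRNA was the sum of the total signals of its probes that lay above 3 times their own error, and a miRNA with no such probe was taken as not detected.

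The study examined lens-induced myopia in male C57BL/6J mice. An eye was left without a lens (normal), or wore a 0 D lens or a −30 D lens, and for the −30 D eyes the lens was fixed at 3 weeks of age and worn for 3 weeks. Iris, RPE/choroid, retina, lens, cornea and sclera of the eye and the tissues labelled SCN and LGN were each measured on 1 one-color array per lens group, which gave 24 arrays. Each array of a normal or −30 D ocular tissue held the pooled RNA of 3 mice, and the sample labelled choroid is called RPE/choroid here, after the study's methods. Since a slide held 1 lens group, the effects of slide and of lens cannot be told apart. The 3 arrays of a tissue differed in lens group, and a mean ± SD over them (n = 3 throughout) therefore holds any effect of the lens and of the slide. A p-value over them measures the spread between these arrays alone. An array detected 6.86% to 13.2% of the miRNAs. Arrays were scaled to a common 75th percentile of the 79 miRNAs that every array detected, by log2 factors of −1.01 to 1.65. The largest factors were those of the lens, so that values are given without scaling where this matters. In tissue RNA, fewer cells of a type and less RNA per cell cannot be told apart.

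A miRNA guides a silencing complex to messenger RNAs that pair with its seed, a short run near the 5′ end, and miRNAs with one seed are expected to share many targets. miR-204 lies within Trpm3 and miR-211 within Trpm1, genes of related cation channels, and Trpm1 is known from melanocytes and from ON bipolar cells of the retina. In the pigment epithelium of the eye both miRNAs are known as products of the program of the transcription factor MITF, and miR-204 is also known from lens and retina.

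The mature sequences are shown because the 5p strands are so alike that a probe for one could bind the other. They come from RefSeq (GRCm38.p6), run 5′ to 3′, and the capitals mark the seed (bases 2 to 8). miR-204 lies on the plus strand of chromosome 19, with the 5p strand at chr19:22750610-22750631 and the 3p strand at chr19:22750649-22750669. miR-211 lies on the plus strand of chromosome 7, with the 5p strand at chr7:64205831-64205852 and the 3p strand at chr7:64205868-64205888.
mmu-miR-204-5p: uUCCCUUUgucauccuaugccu
mmu-miR-211-5p: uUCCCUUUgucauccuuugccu
mmu-miR-204-3p: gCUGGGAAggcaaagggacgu
mmu-miR-211-3p: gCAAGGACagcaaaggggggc

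The 5p strands were the same at 21 of 22 positions and differed by A17U, counted from 1 at the 5′ end with the base of miR-204-5p first. This position lies outside the seed. The 3p strands were the same at 14 of 21 positions and did not share a seed. They held 10 G each, against 2 in each 5p strand. 1 other miRNA on the array has the seed of the 5p strands, mmu-miR-7670-3p, and it was detected on 0 of 24 arrays. Its seed is in capitals again.
mmu-miR-7670-3p: uUCCCUUUcugaauaucuguaga

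The precursors are shown with both mature strands in capitals. In RefSeq the Mir204 precursor of 68 bases lies within the span of Trpm3, and the Mir211 precursor of 106 bases within the span of Trpm1.
Mir204: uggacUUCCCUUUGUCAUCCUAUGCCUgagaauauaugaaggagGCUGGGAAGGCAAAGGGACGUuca
Mir211: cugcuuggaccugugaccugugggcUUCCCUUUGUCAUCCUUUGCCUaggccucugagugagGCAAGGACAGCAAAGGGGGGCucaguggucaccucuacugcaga

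miR-211-5p had its peak in the iris and miR-204-5p did not, although both were detected on every iris array. miR-211-5p was highest in the iris in every lens group, followed by retina and RPE/choroid, and was near the detection limit in SCN and LGN. miR-204-5p was detected on all 24 arrays, and among the 6 ocular tissues its scaled signal was lowest in the iris. Without scaling the iris mean of miR-204-5p ranked 4 among the 8 tissues. The mean signal of the 3p strand of miR-211 was highest in the lens of the eye, where its 5p strand was low, by an amount that depended on the scaling. RPE/choroid was highest in miR-204-3p with and without scaling, but not with normexp background correction. In miR-204-5p RPE/choroid was second to the lens with scaling and highest without it.

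**Figure D1:**
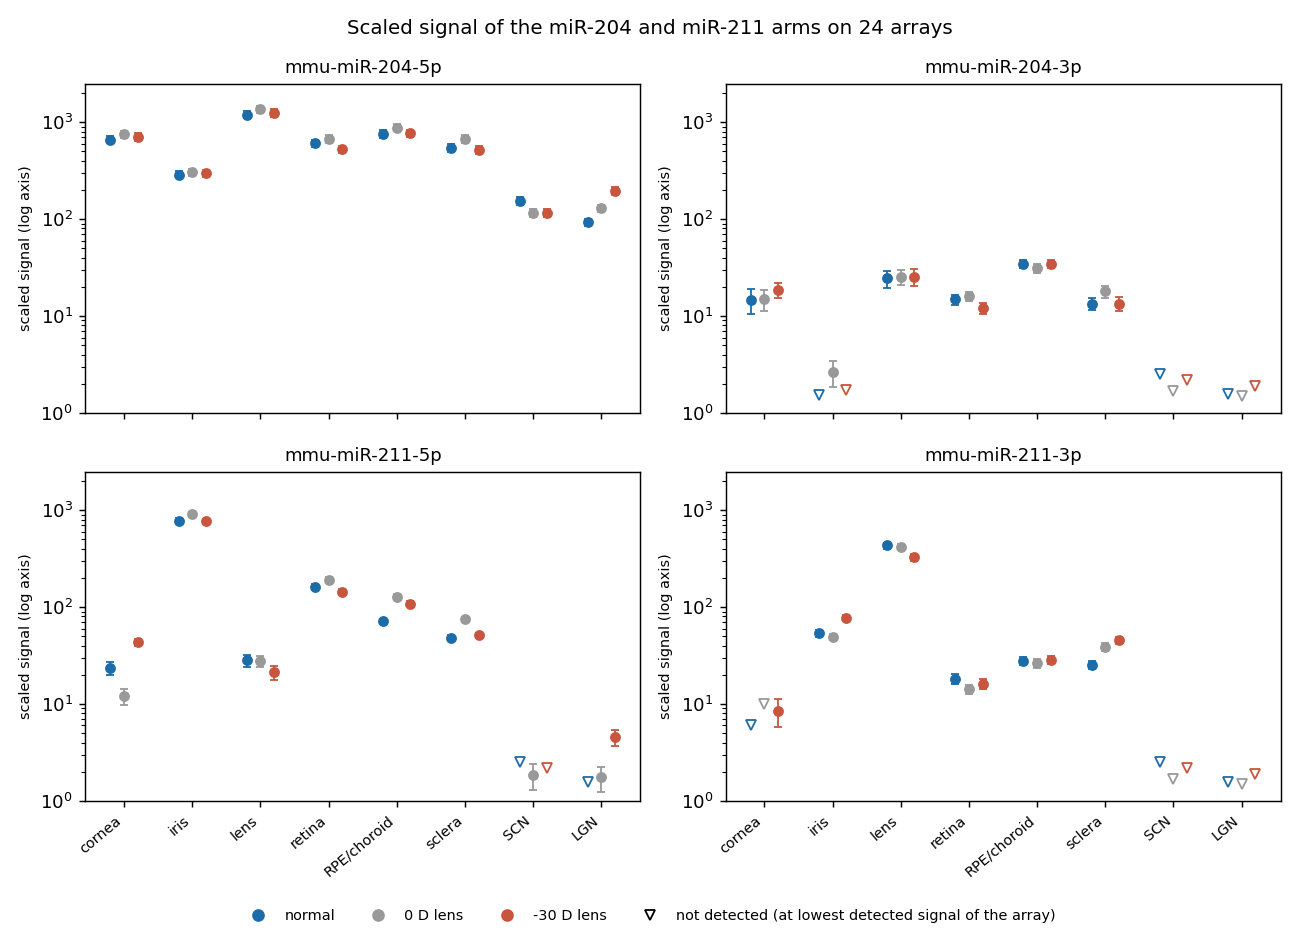
Scaled signal (log axis) of the 4 strands in 8 tissues, 1 point per array, colored by lens group, with the error of the signal within the array. Open triangles mark arrays without detection, drawn at the lowest detected signal of that array. The iris points of miR-211-5p lie between 773 and 908, above the points of all other tissues, while the iris points of miR-204-5p lie between 288 and 305, below those of the other ocular tissues.

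The scaled signal of miR-211-5p in iris was 782 in the normal, 908 in the 0 D and 773 in the −30 D group. In retina it was 162, 191 and 144 in the same order, and in RPE/choroid 71.8, 127 and 108. The iris arrays did not overlap with those of any other tissue, whereas 1 of the retina values, that of the −30 D group, lay close to the 0 D value of RPE/choroid.

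In sclera the scaled signal of miR-211-5p was 48.4, 74.96 and 51.3 in the normal, 0 D and −30 D groups. In the lens it was 28.2, 27.7 and 21.2, and in cornea 23.7, 12.03 and 43.2. The 3 cornea arrays spread by 3.60-fold from lowest to highest, the widest spread of miR-211-5p among the ocular tissues. In SCN miR-211-5p was detected on 1 of 3 arrays, at 1.84 with the 0 D lens, and in LGN on 2 of 3, at 1.74 with the 0 D and 4.52 with the −30 D lens.

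The mean scaled signal of miR-211-5p was thus 821 ± 75.7 in iris, 166 ± 23.9 in retina, 102.5 ± 28.3 in RPE/choroid, 58.2 ± 14.6 in sclera, 26.3 ± 15.8 in cornea and 25.7 ± 3.92 in lens. The order of these means was the same without scaling. Iris exceeded retina by 2.31 ± 0.44 on the log2 scale (± SE, limma, adjusted p = 0.00024). Retina and RPE/choroid differed by 0.72 with a 95% interval of −0.22 to 1.66 (adjusted p = 0.17), RPE/choroid and sclera by 0.80 with an interval of −0.14 to 1.74 (adjusted p = 0.24), and cornea and lens by −0.14 with an interval of −1.08 to 0.80 (adjusted p = 1). Lens was below sclera, at −1.16 ± 0.44 (adjusted p = 0.032). Without scaling retina exceeded RPE/choroid by 0.99 ± 0.42 (adjusted p = 0.0499) and RPE/choroid exceeded sclera by 1.37 ± 0.42 (adjusted p = 0.018). Of the tested miRNAs, 58.2% were called between iris and retina, 61.6% between retina and RPE/choroid, 20.7% between RPE/choroid and sclera, 42% between cornea and lens and 59.1% between lens and sclera.

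For miR-204-5p, the scaled signal in the lens was 1198 in the normal, 1353 in the 0 D and 1247 in the −30 D group. In RPE/choroid it was 757, 881 and 767, and in iris 288, 305 and 296. The lens arrays were above all other arrays, and the iris arrays were below all other ocular arrays.

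Cornea had scaled signals of miR-204-5p of 662, 749 and 707 in the normal, 0 D and −30 D groups. Retina had 604, 672 and 525, and sclera had 544, 670 and 519. Cornea, retina, RPE/choroid and sclera lay close together, and neighbors among them in the order did not pass the test. RPE/choroid exceeded cornea by 0.18 with a 95% interval of −0.23 to 0.60 (adjusted p = 0.56), cornea exceeded retina by 0.24 with an interval of −0.18 to 0.65 (adjusted p = 0.33), and retina exceeded sclera by 0.06 with an interval of −0.36 to 0.47 (adjusted p = 0.90). Lens exceeded RPE/choroid by 0.66 ± 0.20 (adjusted p = 0.0075). The shares of tested miRNAs called were 47.7% between cornea and RPE/choroid, 62.8% between cornea and retina, 69.9% between retina and sclera and 58.5% between lens and RPE/choroid.

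In SCN the scaled signal of miR-204-5p was 155, 116 and 117, and in LGN 92.6, 130 and 196. The SCN and LGN means, 129 ± 22.6 and 140 ± 52.5, were below the ocular means, which ran from 296 ± 8.47 in iris to 1266 ± 79.0 in lens. The order of the ocular tissues depended on the scaling. Without it, cornea against RPE/choroid gave −1.43 ± 0.21 on the log2 scale (adjusted p = 8.3e-06), lens against RPE/choroid gave −1.21 ± 0.21 (adjusted p = 4.4e-05), and retina exceeded cornea and sclera. The mean signal of miR-204-5p was then 1080 ± 64.0 in RPE/choroid, 983 ± 222 in retina, 526 ± 56.6 in sclera, 476 ± 120 in iris, 471 ± 83.4 in lens and 404 ± 59.0 in cornea. SCN and LGN were again lowest, at 135 ± 27.3 and 203 ± 74.0.

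The 3p strand of miR-204 followed the 5p strand at lower detection. Its scaled signal in RPE/choroid was 34.3, 31.3 and 34.4 in the normal, 0 D and −30 D groups, and in the lens 24.4, 25.2 and 25.4. The means in cornea, sclera and retina were 16.1 ± 2.12, 14.9 ± 2.59 and 14.3 ± 2.06. On the log2 scale, lens against RPE/choroid gave −0.41 with a 95% interval of −0.90 to 0.07 (adjusted p = 0.14), and cornea against sclera 0.11 with an interval of −0.37 to 0.60 (adjusted p = 0.91), in a comparison that called 48.6% of the tested miRNAs. Cornea was below lens, at −0.65 ± 0.23 (adjusted p = 0.029), but this call rested on the scaling. Without it the signals were 9.23 ± 2.06 in cornea and 9.29 ± 1.19 in lens, with a log2 difference of −0.02 (adjusted p = 1), and lens was below RPE/choroid, at −2.28 ± 0.27 (adjusted p = 4.6e-07). In iris it was detected on 1 of 3 arrays, at 2.64 with the 0 D lens. It was not detected on the 6 arrays of SCN and LGN, and RPE/choroid was at least 15.9-fold higher than SCN and at least 16.5-fold higher than LGN. Each bound sets the mean of the measured tissue against the higher of the lowest detected signal and the strand's own signal on each array of the other tissue, with probes below 0 set to 0. RPE/choroid was highest without scaling too, at 45.1 ± 4.62, and the lens was then at 9.29 ± 1.19, below retina (23.5 ± 5.54) and sclera (13.5 ± 1.73). On the RPE/choroid arrays both probes of miR-204-3p counted, and on those of lens, cornea and sclera only A_54_P00004867. With the sum of all probes the mean log2 signal was 5.06 in RPE/choroid and 4.67 in lens. With normexp background correction it was 8.18 in RPE/choroid and 8.96 in lens.

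The 3p strand of miR-211 had an order of its own. In the lens its scaled signal was 432, 416 and 326 in the normal, 0 D and −30 D groups. In iris it was 53.6, 49.1 and 77.1, and in sclera 25.2, 39.0 and 45.3. With this scaling the lens arrays stood apart from all others. RPE/choroid (27.6 ± 1.18) and retina (16.2 ± 1.99) were lower, cornea was detected on 1 of 3 arrays, at 8.50 with the −30 D lens, and SCN and LGN were not detected. On the scaled signals the lens was at least 77.6-fold higher than SCN and at least 86.5-fold higher than LGN. These bounds rest on the log2 scaling factors of the lens, 1.27 to 1.65, and were not computed without scaling. Below the lens, neighbors in the order did not pass the test, with iris against sclera at 0.73 and a 95% interval of −0.31 to 1.76 (adjusted p = 0.26, 48.6% of the tested miRNAs called), RPE/choroid against sclera at −0.36 (−1.40 to 0.68, adjusted p = 0.80) and retina against RPE/choroid at −0.78 (−1.82 to 0.26, adjusted p = 0.18). Without scaling the mean was 147 ± 37.9 in lens against 93.4 ± 13.7 in iris, and the arrays did not stand apart, since the −30 D arrays of lens and iris were both at 104. Iris then exceeded sclera by 1.52 ± 0.29 (adjusted p = 0.0002).

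The strands of miR-211 ran in opposite directions between iris and lens. miR-211-5p was higher in iris by 5.01 ± 0.44 on the log2 scale (adjusted p = 2.9e-08), and miR-211-3p was higher in the lens, with iris against lens at −2.73 ± 0.49 (adjusted p = 0.00011). Without scaling miR-211-5p was higher in iris by 7.10 ± 0.42 (adjusted p = 5.8e-11), and iris against lens was −0.63 ± 0.29 for miR-211-3p (adjusted p = 0.072), so that the call of miR-211-3p was lost. In this comparison 59.7% of the 352 tested miRNAs passed the threshold. The tested miRNAs were those detected on at least 3 arrays. Over the 18 ocular arrays the log2 signals of the strands of miR-211 had a Pearson correlation of 0.15, against 0.87 for the strands of miR-204. These are descriptions, and arrays of a tissue and of a slide share their source and the scaling.

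The probes of miR-211-3p also differed between these tissues. The miRNA had 2 probes, A_54_P00005259 and A_54_P00005260. The first gave 0.689 to 0.695 of the signal of the second in iris and 0.964 to 1.01 in the lens. The ratio lay between 0.705 and 0.844 in retina, RPE/choroid and sclera, so that the lens arrays were above all others. The probes of miR-204-5p, A_54_P2397 and A_54_P2396, kept a ratio of 0.134 to 0.149 on all 24 arrays. Why the probe ratio of miR-211-3p differed in the lens was not tested.

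The miRNAs most like miR-211-3p over the 24 arrays were chosen after their values were seen. Among 142 other miRNAs detected on at least 18 arrays, these were mmu-miR-2861, mmu-miR-5126, mmu-miR-8110, mmu-miR-3102-5p and mmu-miR-3960, with Pearson correlations of 0.90, 0.86, 0.86, 0.83 and 0.78. All 5 were highest in the lens. The sequences of the first 4, from RefSeq, are shown for their base composition, in lower case throughout. Their share of G was 68.4%, 77.3%, 66.7% and 59.1% in this order. It was 47.6% in miR-211-3p and also in miR-204-3p, whose scaled signal was highest in RPE/choroid. In miR-211-5p the share was 9.09%, and the median was 23.8% over the 125 of the 142 miRNAs that have a sequence. The part of base composition in the lens signal was not tested.
mmu-miR-2861: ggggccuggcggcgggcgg
mmu-miR-5126: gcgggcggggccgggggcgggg
mmu-miR-8110: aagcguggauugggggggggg
mmu-miR-3102-5p: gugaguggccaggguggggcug

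The pattern of the 5p strands was found in other miRNAs in part. The 5 miRNAs most like miR-204-5p were mmu-miR-877-3p (Pearson r = 0.89), mmu-miR-96-5p (0.79), mmu-miR-8117 (0.78), mmu-miR-184-3p (0.78) and mmu-miR-92a-3p (0.78). Those most like miR-211-5p were mmu-miR-26b-5p (0.75), mmu-miR-3082-5p (0.72), mmu-miR-877-3p (0.70), mmu-miR-378b (0.65) and mmu-miR-574-5p (0.64). Only mmu-miR-378b of the latter was, like miR-211-5p, highest in the iris. All correlations were over 24 arrays.

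Whether the 5p probes told the 5p strands apart was examined from signals on the same array. The lowest ratio of miR-211-5p to miR-204-5p probe signal was 1.34%, on the LGN array of the 0 D group. Of the 4 probes only A_54_P1469 was above 3 errors there, at 2.88. The others, at 1.05, 1.80 and 2.22, were not counted. If every array has the same cross-signal, this share limits the miR-204-5p signal on the counted probe of that array. It is no strict upper limit for arrays on which more probes counted, and the shares below can be too low. By this value miR-204-5p could account for 0.451% to 0.514% of the miR-211-5p signal in iris and 4.71% to 5.01% in retina. The share was 9.28% to 14.2% in RPE/choroid and up to 15.1% in sclera. It was 57.0% to 79.1% in the lens and 21.9% to 83.6% in cornea. The cross-signal by this value was thus far below the signal in iris, and near it on the lens arrays and on 1 cornea array.

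**Figure D2:**
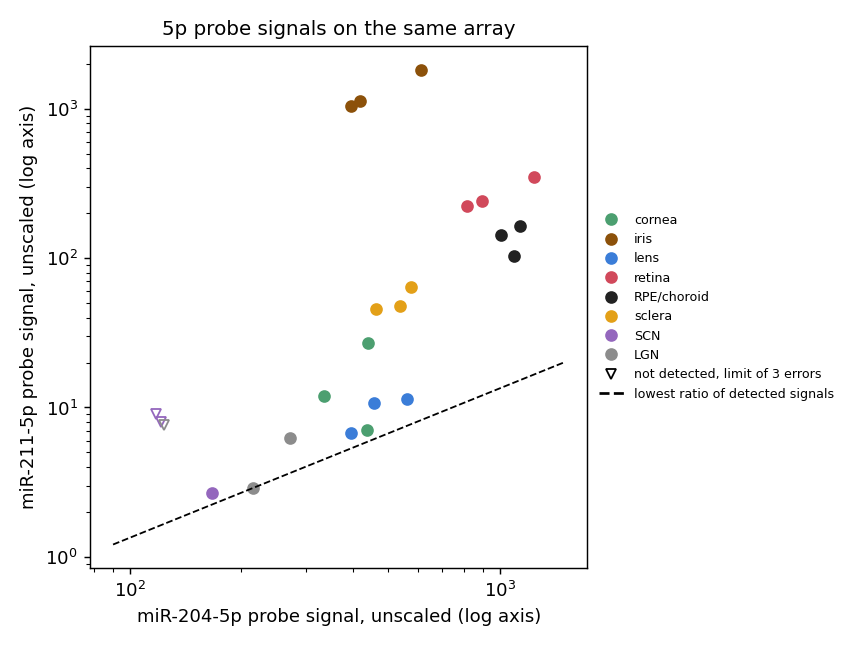
Unscaled probe signal of miR-211-5p against that of miR-204-5p on each of 24 arrays (both axes log), colored by tissue. Open triangles mark the 3 arrays without detection of miR-211-5p, at 3 probe errors, and the dashed line is the lowest ratio of detected signals, 1.34%. The iris arrays lie far above the line, and lens, LGN, SCN and 1 cornea array lie near it.

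In the other direction the limit was loose. The lowest ratio of miR-204-5p to miR-211-5p probe signal was 33.6%, in iris, so that 87.8% to 100% of the miR-204-5p signal in iris lies within what miR-211-5p could give by this limit. In retina this was at most 9.57%, and in every other ocular tissue at most 4.86%. The level of miR-204-5p in iris is therefore an upper value. The probes of miR-204-3p, which do not share the sequence of the 5p strands, detected little in iris as given above.

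The 4 probes of miR-211-5p differed in their relation between tissues. A_54_P1466 gave 0.0300 to 0.0357 of the signal of A_54_P1469 in iris, 0.0345 to 0.0423 in retina and 0.0447 to 0.0612 in RPE/choroid. In the lens this ratio was 0.292 to 0.525, and in LGN 0.363 to 0.483. In cornea it was 0.128 on the −30 D array, where miR-211-5p was highest, and 0.548 and 0.712 on the others. A_54_P1466 was above 3 errors on 7 of 24 arrays, the 3 of iris, the 3 of retina and the −30 D array of RPE/choroid. The high ratios of lens, LGN and cornea therefore rest on a probe signal that could not be told from 0. By single probes, the lowest share of the miR-204-5p signal was 0.368% for A_54_P1466 over its 7 arrays and 0.774% for A_54_P1469 over 21 arrays.

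**Figure D3:**
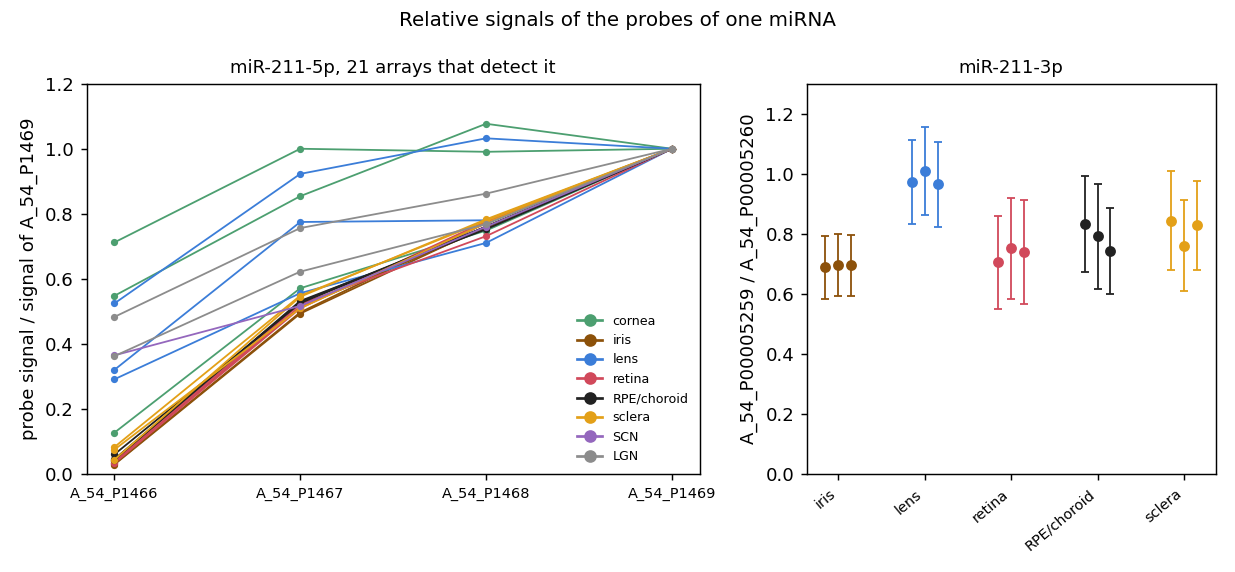
Left, signal of each of the 4 probes of miR-211-5p divided by that of A_54_P1469 on the 21 arrays that detect the miRNA, 1 line per array, colored by tissue. Right, ratio of the 2 probes of miR-211-3p with the error propagated from the probe errors, on the 15 arrays of 5 tissues. Iris, retina, RPE/choroid and sclera share 1 course on the left, where the points of A_54_P1466 are above 3 errors on 7 arrays only, and the lens lies highest on the right (0.964 to 1.01).

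The miR-211-5p signal was then set against that of miR-204-5p within each array, which needs no scaling. The log2 ratio was 1.47 ± 0.10 in iris, −1.86 ± 0.04 in retina, −3.004 ± 0.34 in RPE/choroid, −3.33 ± 0.17 in sclera, −4.93 ± 0.97 in cornea and −5.63 ± 0.24 in lens. These ratios compare the change between tissues and not the levels of the strands. Iris and RPE/choroid together exceeded the other 4 ocular tissues by 3.17 (two-sided exact permutation test within slides, p = 0.0083, 3375 arrangements). The tissues were picked anew on each slide, so that the 3 arrays of a tissue counted as separate units. This p-value therefore does not measure the spread between tissues. RPE/choroid alone was below retina in all 3 lens groups. With the scaling, the log2 signals of the 5p strands had a Pearson correlation of −0.80 over the 18 ocular arrays. It was not computed without scaling, where retina and RPE/choroid had the highest means of miR-204-5p and, after iris, of miR-211-5p.

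Iris and RPE/choroid were also compared with cornea, lens, retina and sclera strand by strand. miR-211-5p was higher in the pigmented tissues by 2.56 ± 0.27 on the log2 scale (limma, adjusted p = 3.9e-07). Its mean log2 signal was 9.68 in iris and 6.64 in RPE/choroid, and RPE/choroid was below retina, at 7.36. A miR-204-5p share of 1.34% was then subtracted, which is no strict upper limit. After this miR-211-5p was higher in the pigmented tissues by 3.26 ± 0.42 (limma, adjusted p = 3.7e-06). miR-204-5p was lower by 0.61, with a fitted difference of −0.61 ± 0.12 (adjusted p = 0.00026), and miR-204-3p was lower, at −1.28 ± 0.14 (adjusted p = 4.9e-07). With the scaling RPE/choroid was the highest tissue in miR-204-3p, so that this lower mean came from iris, where miR-204-3p was detected on 1 of 3 arrays. The other iris arrays were set to the floor, and with a floor of 0.1 the difference of miR-204-3p was −2.43 (limma, adjusted p = 0.00026). Its size moved with the scaling too, and with no scaling it was −0.20 ± 0.16 (limma, adjusted p = 0.30). miR-211-3p had a difference of 0.61 with a 95% interval of −0.02 to 1.25 (adjusted p = 0.084). Thus 3 of 4 members passed the threshold in a comparison in which 65.1% of the tested miRNAs did. With no scaling 3 members passed too, but not the same ones or in the same direction. miR-204-5p was then higher in the pigmented tissues, by 0.36 (adjusted p = 0.019), miR-211-3p was higher by 1.29 (adjusted p = 4.1e-06), and miR-204-3p did not pass. With the scaling, the difference of miR-211-3p was −0.59 without cornea and 1.91 without lens.

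The pigmented tissues differed from each other. Iris exceeded RPE/choroid in miR-211-5p by 3.04 ± 0.44 (adjusted p = 3e-05). It was lower in miR-204-5p, at −1.43 ± 0.20 (adjusted p = 1.4e-05), and in miR-204-3p, at −4.51 ± 0.23 (adjusted p = 3.9e-11), a value that rests on the floor set for 2 iris arrays without detection. miR-211-3p differed by 1.09 with a 95% interval of 0.05 to 2.13 before adjustment (adjusted p = 0.11). So 3 of 4 members were called, against 33.8% of the tested miRNAs.

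Markers of other cells moved with these tissues. The summed scaled signal of 5 retinal miRNAs, which include the photoreceptor cluster miR-183, miR-96 and miR-182, was 24738 to 27606 in retina. It was 1388 to 2426 in RPE/choroid, 788 to 1681 in sclera and 32.2 to 59.6 in iris. In SCN the sum was 1484 to 1580 and in LGN 1690 to 2188, both within the range of RPE/choroid. The smooth muscle miRNAs miR-143-3p and miR-145a-5p summed to 319 to 331 in iris and to 42.0 to 44.5 in RPE/choroid, and were not detected in retina, lens or cornea. The endothelial miR-126a strands summed to 1029 to 1207 in RPE/choroid and 329 to 351 in iris. The 4 striated muscle miRNAs summed to 688 to 757 in lens, 152 to 330 in sclera and at most 132 in the other ocular tissues. The 4 blood miRNAs summed to 70.4 to 83.8 in iris, 87.2 to 118 in RPE/choroid and 67.3 to 89.6 in sclera. They summed to 10.97 to 13.4 in retina and 0 to 37.5 in cornea, and none was detected in lens. Of these blood miRNAs, miR-144-3p and miR-486a-5p were not detected in any ocular tissue. The part of these cells in the signals of the 4 strands was not tested. Of 10 other miRNAs known from pigment epithelium or melanocytes, 9 were tested. In iris and RPE/choroid against the other ocular tissues 3 of these were higher, 4 were lower and 2 were not called. The 2 not called, mmu-miR-137-3p and mmu-miR-222-3p, were detected in SCN and LGN only. All their ocular values were the floor, so that their difference was 0 by construction. The median log2 difference over the 9 was 0 for this reason. Of all tested miRNAs 36.1% were higher and 29% lower. The 3 higher ones were mmu-miR-181c-5p (2.24), mmu-miR-221-3p (2.06) and mmu-miR-338-3p (0.99). Their mean signals were highest in retina, SCN and LGN, in this order, and not in iris or RPE/choroid. mmu-miR-181c-5p was not detected in cornea and lens, nor mmu-miR-221-3p in lens and retina. The differences of these miRNAs therefore rest in part on the floor. mmu-miR-184-3p (−2.40) was among the lower ones.

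On the mean over the 6 ocular tissues all 4 strands were higher than on the mean of SCN and LGN, in a comparison in which 86.6% of the tested miRNAs passed the threshold and 40.1% were higher in the eye. The log2 difference was 2.31 ± 0.11 for miR-204-5p (limma, adjusted p = 5.2e-12) and 5.74 ± 0.26 for miR-211-5p (limma, adjusted p = 1.4e-12). The size for miR-211-5p rests on the floor, since it was detected on 1 of 3 arrays in SCN and on 2 of 3 in LGN. It was 7.47 with a floor of 0.1, 4.27 with the sum of all probes and 2.39 with normexp background correction. The 3p strands were not detected in SCN and LGN, so that only the bounds above apply to them. These do not cover miR-204-3p in iris or miR-211-3p in cornea, each detected on 1 of 3 arrays. The miR-211-5p signal was low in SCN and LGN where it was detected. By the value of 1.34%, miR-204-5p could give 84.1% of it in SCN and 58.4% to 100% in LGN.

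No strand passed the test between lens groups over the 8 tissues. With −30 D against normal, 0 of 352 tested miRNAs (0%) were called by limma, 17 at an unadjusted p under 0.05, and no member was called. With 0 D against normal, 0.852% were called, and with −30 D against 0 D 0.284%, again without a member. For miR-204-5p, −30 D against normal gave 0.08 with a 95% interval of −0.18 to 0.33 (adjusted p = 0.83), and for miR-211-5p 0.37 with an interval of −0.20 to 0.95 (adjusted p = 0.76). miR-204-3p gave 0.01, with an interval of −0.28 to 0.31, and miR-211-3p 0.47, with an interval of −0.16 to 1.11.

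miR-204-5p was higher on the 0 D array than on the normal array in 6 of 6 ocular tissues, by 0.18 ± 0.07 on the log2 scale (mean ± SD over tissues, two-sided exact sign-flip permutation test, p = 0.03125, the smallest that 6 tissues allow). It was lower with −30 D than with 0 D in 6 of 6, by a mean difference of −0.19 ± 0.14 (exact sign-flip permutation p = 0.03125). Over all 8 tissues the exact p was 0.164 and 0.531. These are 2 of 24 such tests, for 4 strands, 3 comparisons and both sets of tissues, and are not adjusted for this number. The 0 D arrays share 1 slide, and the ocular tissues of the normal and −30 D groups came from 3 mice in each group, so that the 6 tissues are not independent.

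Within a tissue each lens group had 1 array and there was no test. Of 73 log2 ratios with detection on both arrays, 70 lay within 2-fold. The criteria of the study, a ratio above 2 or below 0.5 where both arrays detect a miRNA and above 5 or below 0.2 where 1 does, were met in 11 of 81 cases with detection over the members, tissues and comparisons (13.6%), against 16.1% over all miRNAs. In 8 of these, 1 array did not detect the strand and was set to 0.1 for the criteria. Since the lowest scaled detected signal was 1.09, every case with detection on 1 array met the criteria by construction. This holds for the members and for all miRNAs, so that both shares count changes of detection as well. Against the floor used for the bounds above, 3 of the 8 had a lower bound above 1, at least 1.54-fold for miR-211-5p in LGN and 1.41-fold for miR-211-3p in cornea with −30 D against normal, and at least 1.24-fold for miR-204-3p in iris with 0 D against normal. The other 3 were miR-204-5p in LGN with −30 D against normal (1.08 ± 0.18), and with −30 D against 0 D miR-211-5p in cornea (1.85 ± 0.30) and in LGN (1.37 ± 0.50), where ± is the error propagated from the probes. miR-211-5p in cornea with −30 D against normal was at 0.87 ± 0.25 and so below the criterion of a 2-fold change, but at 1.16 without scaling. The share of all miRNAs meeting the criteria was 16.5% in LGN with −30 D against normal, 22.3% in cornea with −30 D against 0 D and 12.7% in LGN with −30 D against 0 D.

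In RPE/choroid the log2 ratio of miR-211-5p to the normal array was 0.59 ± 0.12 with the −30 D and 0.83 ± 0.12 with the 0 D lens. In iris the log2 ratio of −30 D to normal was −0.02 for miR-211-5p and 0.52 for miR-211-3p. In sclera it was 0.85 for miR-211-3p and −0.07 for miR-204-5p. In retina the ratios of all 4 strands for −30 D against normal lay below 0, between −0.30 and −0.17, with errors of 0.12 to 0.26. These ratios come from the same arrays and share their scaling, so that their common sign is not independent.

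**Figure D4:**
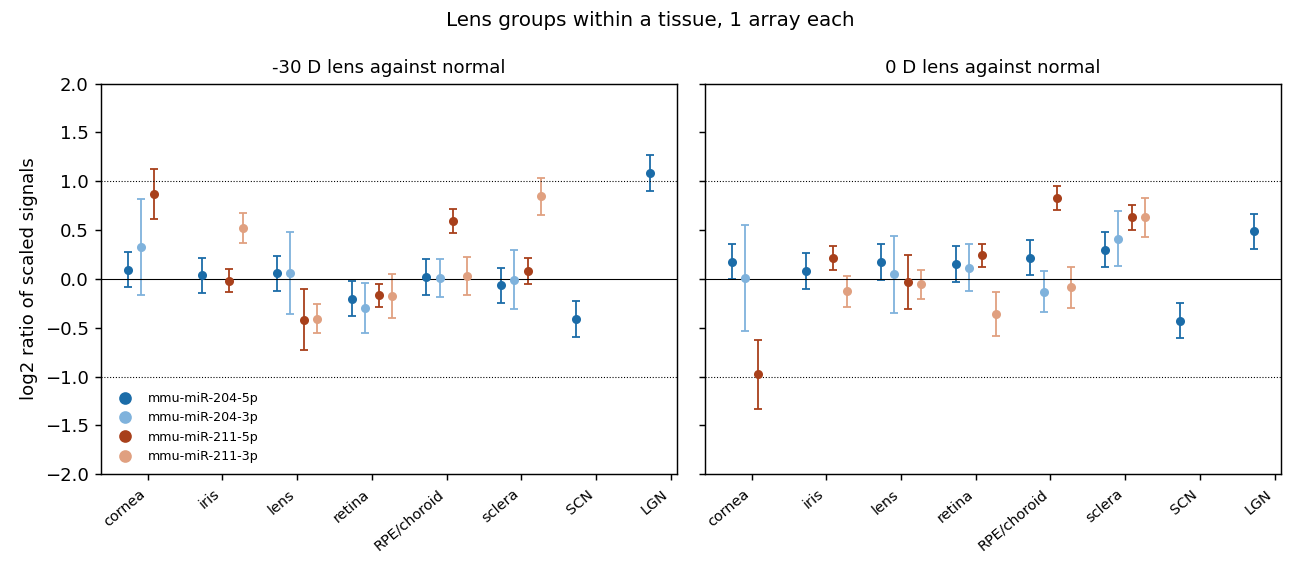
Log2 ratio of scaled signals within a tissue for −30 D against normal (left) and 0 D against normal (right), 1 array in each group, for strands detected on both arrays. Bars are the error propagated from the probe errors, and dotted lines mark a 2-fold change. Among these ratios the point of miR-204-5p in LGN (1.08) is the only one beyond a dotted line.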

How the data were processed

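Total RNA (100 ng per array) was labeled with cyanine 3, hybridized to one-color arrays and, per the labels, read with Feature Extraction 10.7.1.1. The intensity values deposited by the authors are total probe signals after background subtraction with their errors, and other deposited columns hold flags of detection and saturation. The table that the authors named normalized, with 24 value columns, was not used here. No member had a saturated spot.

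From these the probes above 3 errors were summed, scaled and set to log2. A miRNA not detected was set to the lowest scaled detected signal, 1.09. Tissue and lens group were fitted as additive terms in limma 3.58.1 under R 4.3.3 on 352 miRNAs, with Benjamini-Hochberg adjustment over all of them and a threshold of 0.05. The contrasts were 6 main ones and 28 pairs of tissues. The number of arrays limits the precision. Tested on simulated data for the pigmented against the other ocular tissues, the fit recovered 200 of 200 miRNAs changed 4-fold, with 10 false calls among the rest of 352. The miRNAs named were the members, the 5 most like each 5p strand by Pearson correlation, any other with their seed, and marker miRNAs where needed. The 5 most like miR-211-3p were named too, chosen after their values were seen. Members and lists were chosen with earlier results of these data known. The 5p strands were also compared by an exact permutation within slides, with the arrays of a tissue on different slides as separate units. The alternatives were other scalings, floors, filters, probe sums, background correction (normexp, offset 50), samples and criteria. Calculations ran in Python 3.11.15 with scipy 1.17.1, pandas 2.3.3 and numpy 2.4.6, and plots were drawn with matplotlib 3.10.9. A genome build of the array design is not given in the sources used here.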

Additional observations from a re-analysis of the deposited data

How the results depend on the processing

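No alternative left out iris or RPE/choroid from their comparison with the other ocular tissues. For miR-211-5p, the difference in this comparison kept its direction and stayed past the threshold under all alternatives run. It ranged from 1.61 with normexp to 3.53 with no scaling. That of miR-204-5p was 0.36 with no scaling and 0.071 when each array was scaled by the 75th percentile of its own detected miRNAs (an alternative chosen after seeing the data), against −0.61, and from −0.74 to −0.36 when a slide or a tissue was left out. For miR-211-3p, 0.61 and not past the threshold, it was −0.46 with normexp (adjusted p = 4.7e-05), passed at 1.29 with no scaling, 0.72 with quantile normalization and 1.05 with the percentile of each array, and ran from −0.59 to 1.91 when a slide or tissue was left out. Between iris and RPE/choroid it passed with no scaling (1.31), normexp (0.64), quantile normalization (1.33) and the percentile of each array (0.96). Pairs of tissues were refitted without scaling after seeing the data, and of the 17 pairs named, 6 passed that had not, 2 of the same direction no longer passed and 5 changed sign. The last were cornea against lens for miR-211-5p (0.48), cornea against retina (−1.27) and lens against RPE/choroid (−1.21) for miR-204-5p, cornea against sclera for miR-204-3p (−0.57) and RPE/choroid against sclera for miR-211-3p (0.20). The cause was not tested. Without any 1 slide, the difference in the ratio of the 5p strands was 2.99 to 3.29 (exact permutation p = 0.04 each). The arrays of a tissue were separate units here too.

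Between lens groups no member passed the threshold under any alternative, and these values changed sign. With −30 D against normal, miR-204-3p was −0.012 with no scaling and −0.012 with quantile normalization, and miR-204-5p was −0.010 over the 18 ocular arrays. With 0 D against normal, miR-204-3p was −0.14 with normexp, and miR-211-3p was −0.094 with normexp, −0.13 with quantile normalization and −0.017 with the percentile of each array. With −30 D against 0 D, miR-204-3p was 0.078 with the sum of all probes and 0.15 with normexp, and miR-211-5p was −0.042 with no scaling, −0.35 with the floor at 0.1 and −0.014 with normexp. When a tissue was left out, −30 D against normal ran from −0.068 to 0.15 for miR-204-5p and from −0.034 to 0.055 for miR-204-3p, 0 D against normal from −0.089 to 0.052 for miR-211-3p, and −30 D against 0 D from −0.17 to 0.20 for miR-211-5p.

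By single probes of miR-211-5p, the lowest share of the miR-204-5p signal was 0.368%, 0.620%, 0.624% and 0.774% for A_54_P1466, A_54_P1467, A_54_P1468 and A_54_P1469, over the 7, 16, 19 and 21 arrays on which the probe was above 3 errors. The 1.34% was the share of A_54_P1469 alone on the LGN array of the 0 D group, where no other probe of miR-211-5p was above 3 errors. The criteria within tissues were met in 12 cases with no scaling and in 9 with a ratio of 3, against 11. Cases with detection on 1 array met them by construction in each. The 75th percentile over all miRNAs was not run, since it was at or below 0 on 1 array. No replicate block was fitted, since the labels carry no replicate numbers, while lens groups were compared within tissues by the tissue term and by the sign-flip test. Low signal over background limits miR-204-3p in iris, miR-211-3p in cornea, both 3p strands in SCN and LGN, and miR-211-5p in cornea, lens, SCN and LGN.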
